A study of Mus musculus with 1627 samples.

Results

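Regulatory T cells (Tregs) of injured mouse muscle in which at least 1 transcript of Il1rl1 was counted are described here. Il1rl1 encodes ST2, the receptor for the alarmin IL-33. The cells were chosen by that count alone, so their Il1rl1 level is a description and not a result. They numbered 304 of the 1368 muscle Tregs and of the 1627 cells in all libraries. Muscle library 1 gave 150 of its 674 cells, and muscle library 2 gave 154 of its 694. Each was paired, within its library, with a muscle Treg of nearly the same total count and 0 Il1rl1 transcripts, called a matched cell below.

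The cells came from male B6 Foxp3-Ires-Gfp mice aged 8 months, in which green fluorescent protein (GFP) is made from the Foxp3 locus, 4 days after cardiotoxin had been injected to injure muscle. Live GFP+ cells that carried the T cell receptor beta chain and CD4 were sorted from digested muscle and, as 259 further cells, from spleen, and were sequenced by inDrops, a droplet method that counts unique molecular identifiers (UMIs). All libraries shared the strain, sex, age and injury, and uninjured muscle was not analysed here. No label says which animal a cell came from. A tissue was therefore treated as 1 sample, the 2 muscle libraries as repeats of unknown origin, and no p-value was computed.

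ST2 pairs with the accessory chain encoded by Il1rap, and IL-33 binding recruits Myd88, Irak kinases and Traf6, which lead to NF-kB and MAP kinase activation. Among T cells ST2 is known from Tregs of barrier and injured tissues and from type 2 helper cells, and IL-33 is released by stromal cells of damaged tissue. Mast cells and group 2 innate lymphoid cells carry the same receptor.

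Il1rl1 lies on the plus strand at chr1:40429570-40465415 (GRCm38, the Genome Reference Consortium assembly that mm10 denotes) and overlaps no other annotated gene. RefSeq lists 2 start windows for it, each with 250 bases before and 50 after the start. They are shown because this gene chose the cells and because Gata3, described below, encodes a factor that binds GATA. Capitals mark GATA on either strand (GATA or TATC, with no overlap allowed for). The upstream window, chr1:40429320-40429619 on the plus strand, holds 6 matches, and the downstream one, chr1:40439379-40439678 on the plus strand, holds 2.
Il1rl1 upstream start window: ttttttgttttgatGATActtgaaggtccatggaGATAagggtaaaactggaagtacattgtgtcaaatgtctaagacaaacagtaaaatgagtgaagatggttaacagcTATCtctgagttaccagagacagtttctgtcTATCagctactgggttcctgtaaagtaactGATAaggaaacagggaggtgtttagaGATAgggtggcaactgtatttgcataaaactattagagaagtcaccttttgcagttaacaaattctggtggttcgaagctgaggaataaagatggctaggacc
Il1rl1 downstream start window: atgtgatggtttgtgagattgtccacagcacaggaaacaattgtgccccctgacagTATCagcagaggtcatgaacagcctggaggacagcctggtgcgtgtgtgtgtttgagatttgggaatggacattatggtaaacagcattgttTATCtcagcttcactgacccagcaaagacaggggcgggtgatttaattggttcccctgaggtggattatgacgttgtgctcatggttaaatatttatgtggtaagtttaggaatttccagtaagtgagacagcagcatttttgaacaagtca
Of 32851 windows of the same length, 57.9% held at least 1 match, 28.7% at least 2 and 0.645% at least 6. The longer AGATAA, also sought on either strand, had 1 match in each Il1rl1 window, and 11.2% of the 32851 windows held at least 1. A match describes the letters and is not a bound site. The shares take no account of base composition, and whether the product of Gata3 acts on Il1rl1 was not tested.

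Muscle library 1 held 318 Il1rl1 UMIs, muscle library 2 held 352 and spleen held 21. These are 207 (95% exact Poisson interval 185 to 231), 184 (165 to 204) and 21.4 (13.2 to 32.7) counts per 1000000 UMIs (CPM). At least 1 UMI was found in 22.3% of the cells of muscle library 1 (95% exact binomial interval 19.2% to 25.6%), 22.2% of those of muscle library 2 (19.2% to 25.5%) and 4.25% of those of spleen (2.14% to 7.47%). The muscle libraries were alike and the spleen was lower, although its cells were the deepest: medians were 1976 and 2487.5 UMIs per cell in the muscle libraries and 3541 in spleen. All intervals cover counting error only. The table holds no cells other than sorted Tregs, so how much Il1rl1 free RNA could add to a cell was not measured.

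Detection rose with depth. Of the cells below the lower quartile of depth 16.0% in muscle library 1 and 9.20% in muscle library 2 had Il1rl1, and of those above the upper quartile 32.5% and 32.8% did. With every cell thinned to 1000 UMIs, which left out 26, 7 and 0 cells, the shares were 13.3%, 11.9% and 1.16% in muscle library 1, muscle library 2 and spleen. The order of the tissues was the same at each thinned depth. A cell with 0 UMIs is therefore not shown to lack ST2, and the comparison below is of detected against undetected.

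**Figure D1:**
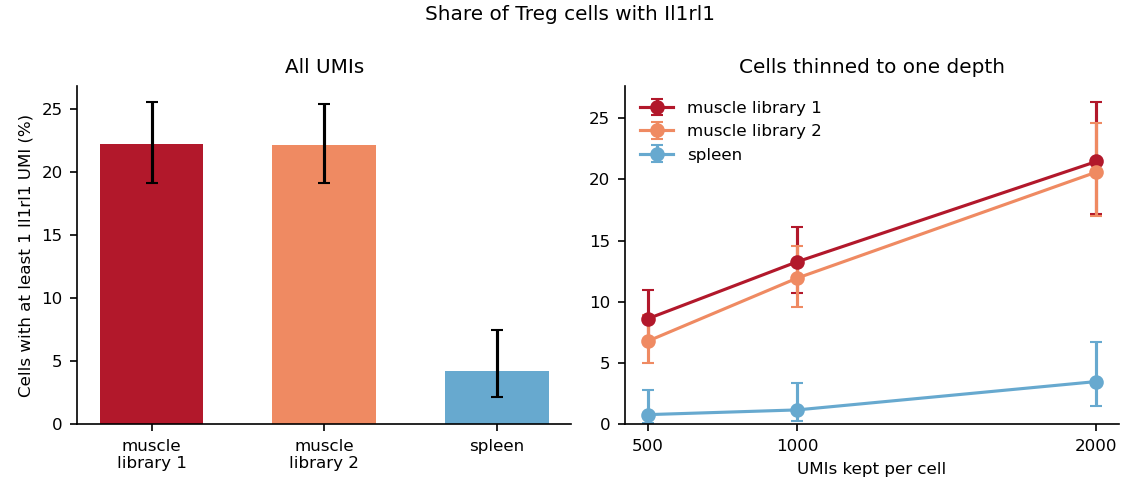
Share of Treg cells with at least 1 Il1rl1 UMI, in percent, by library with all UMIs (left; bars with 95% exact binomial intervals) and after each cell was thinned to 500, 1000 or 2000 UMIs (right). The muscle libraries stand at 22.3% and 22.2% and the spleen at 4.25%, and every line climbs with depth.

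Many members sat just inside the threshold. In muscle library 1, 75 cells had 1 UMI, 35 had 2 and 40 had 3 or more, with at most 10. In muscle library 2, 69 had 1, 37 had 2 and 48 had 3 or more, with at most 17. Just outside it stood 524 and 540 cells with 0 UMIs.

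Pairing made the groups equal in depth. The Il1rl1 cells of muscle library 1 had a median of 2264.5 UMIs and 989 genes, and their matched cells 2258.5 UMIs and 981.5 genes. In muscle library 2 the medians were 2876 UMIs and 1072.5 genes in Il1rl1 cells and 2880.5 UMIs and 1030.5 genes in matched cells. Ribosomal protein genes took a median of 12.8% and 13.4% of a cell's UMIs in the Il1rl1 cells and 13.4% and 13.9% in the matched cells. The muscle libraries shared 11 cell barcodes, muscle library 1 shared 1 with spleen and muscle library 2 shared 0. Of the Il1rl1 cells 0 and 5, and of the matched cells 3 and 1, carried a barcode found in another library, and without them 36 genes were called higher and 46 lower by the rule given below.

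The sorted identity held in these cells. Foxp3, the factor that defines Tregs, stood at 554 and 549 CPM in the Il1rl1 cells of muscle libraries 1 and 2 and at 480 and 551 CPM in the matched cells. Cd4 stood at 614 and 535 CPM in Il1rl1 cells and at 399 and 570 CPM in matched cells. Neither gene differed by 1.5-fold in both libraries. Ikzf2, which encodes the Treg factor Helios, was at 1001 and 980 CPM in Il1rl1 cells and at 753 and 864 CPM in matched cells.

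Other ST2 carriers were nearly absent. The 9 mast cell markers summed to 1 and 1 UMI in the Il1rl1 cells and 4 and 1 in the matched cells, and 7 of the 9, among them Cpa3, Mcpt4 and Fcer1a, were at 0 in the Il1rl1 cells. Of the 8 markers of group 2 innate lymphoid cells, Il5, Arg1, Calca and Ptgdr2 were at 0 in the Il1rl1 cells. That list summed to 632 and 395 CPM in Il1rl1 cells and to 313 and 264 CPM in matched cells, and Areg, which Tregs also make, gave nearly all of it. The 18 myeloid markers summed to 564 and 553 CPM in Il1rl1 cells and to 528 and 580 CPM in matched cells, so they did not move with the class. The type 2 cytokine gene Il13, also named after its values were seen, had 2 and 5 UMIs in Il1rl1 cells and 0 and 0 in matched cells.

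Gene levels were compared on UMIs summed over the cells of each class in each library, in CPM with Il1rl1 left out. A gene was called higher or lower when it differed at least 1.5-fold the same way in both libraries. Of 3051 genes with at least 100 UMIs over the 4 sums, 41 (1.34%) were called higher and 50 (1.64%) lower in Il1rl1 cells, and the median log2 fold was 0.01. The fold in muscle library 1 said little about that in muscle library 2 for most genes: across genes, Pearson's r was 0.097, and 0.49 over the 277 genes with at least 1000 UMIs. Both r are descriptions, since genes are not independent replicates.

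Which genes were called also depended on which cells without Il1rl1 were used. Against a second matched set of other cells, 9 of the 41 higher and 13 of the 50 lower genes were called again, and against all cells with 0 UMIs 13 and 20 were. Direction was not always kept either. Of the 41 higher genes 30 stayed on their side in both libraries with each set, and of the 50 lower genes 38 did. Patl1, called lower with the first set, stood higher over the second in both libraries, at 1.95-fold and 2.13-fold. These values are the reason it is named. Across the first matched set, the second and all cells with 0 UMIs, 6 genes were called higher each time and 12 lower. These 3 sets are not separate. The Il1rl1 cells were the same in each, and all cells with 0 UMIs include both matched sets. The 6 were Bhlhe40, Kat7, Ramp1, Sike1, Spata6 and Armc1. The 12 were Isg15, Ifi47, Slfn1, Ifit1bl1, Il12rb1, Cxcr3, Izumo1r, Canx, Pdia6, Srsf9, Eif2s3x and Ppm1a. Ramp1, Sike1, Spata6, Armc1, Slfn1, Ifit1bl1, Pdia6 and Ppm1a are named after their values were seen, because they are among these 18.

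**Figure D2:**
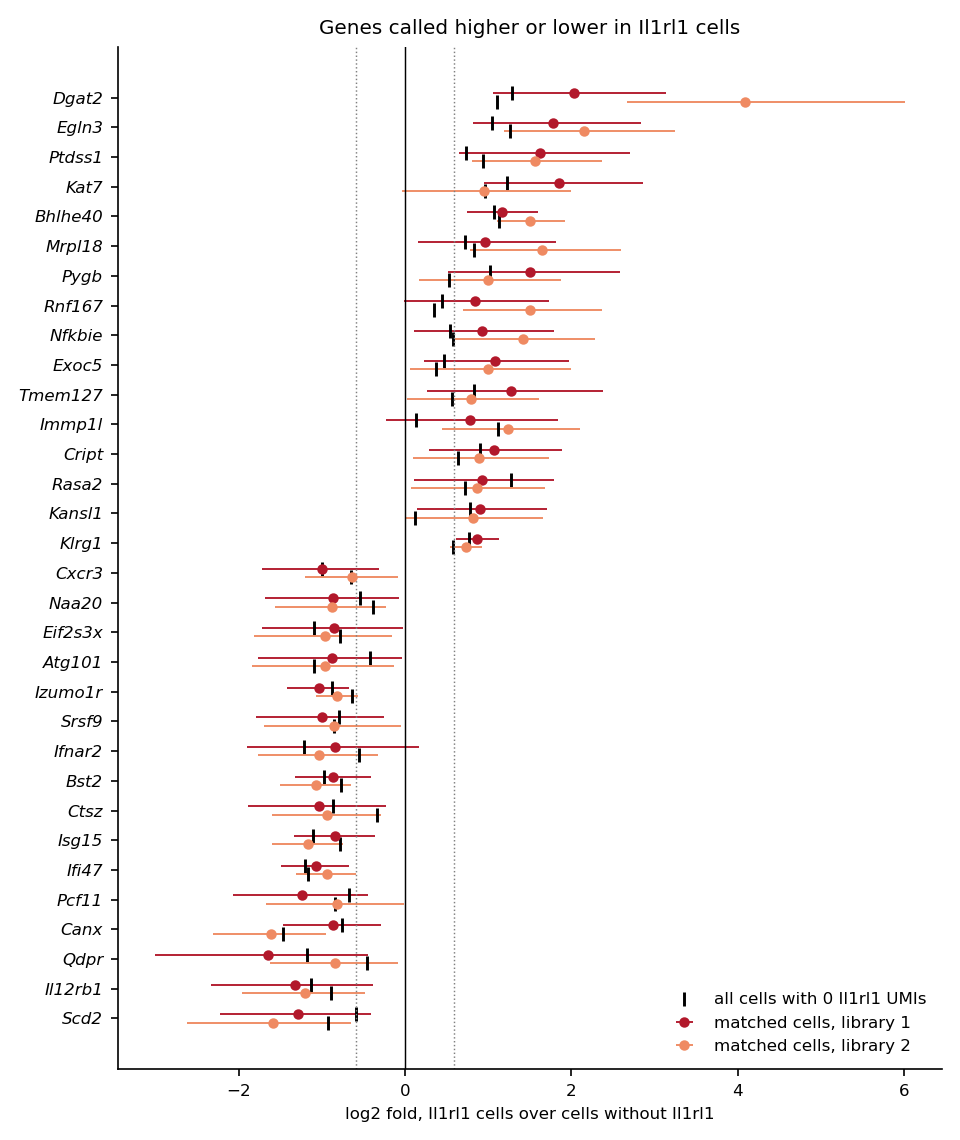
log2 fold of Il1rl1 cells over matched cells in muscle libraries 1 and 2 (points, with 95% exact conditional binomial intervals for counting error) for the 15 genes called higher and the 15 called lower with the largest folds, and for Klrg1 and Cxcr3. Black ticks give the fold over all cells with 0 Il1rl1 UMIs, and dotted lines mark 1.5-fold; Dgat2 in library 2 is 17.0-fold over matched cells with its tick far to the left, while Bhlhe40 and Ifi47 have ticks beyond 1.5-fold in both libraries.

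Genes of the interferon response, which are switched on by type I and type II interferons, were lower as a group in the Il1rl1 cells. Of 21 listed genes 16 were measured, all 16 stood below their matched level in both libraries, 5 were called lower and none higher. The median log2 fold of the 16 was -0.56, against 0.01 for all measured genes, of which 798 of 3051 were below in both libraries and 1.64% were called lower. Against all cells with 0 UMIs 14 of the 16 stood below in both and 2 were called lower. Against the second matched set 13 stood below and 3 were called lower. With members of exactly 1 Il1rl1 UMI, 6 stood below and 3 above in both libraries, and 1 was called higher. The summed level of all 21 was 4861 and 5445 CPM in the Il1rl1 cells of muscle libraries 1 and 2, and 6351 and 7892 CPM in the matched cells.

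Isg15, a ubiquitin-like protein that is attached to other proteins after interferon, had 58 and 68 UMIs in Il1rl1 cells, against 104 and 152 in matched cells. It was 1.79-fold lower (95% interval 1.29 to 2.52) in muscle library 1 and 2.24-fold lower (1.67 to 3.02) in muscle library 2. Bst2, which tethers budding virus to the cell surface, had 65 and 70 UMIs in Il1rl1 cells and 118 and 147 in matched cells. The exonuclease gene Isg20 had 63 and 113 UMIs in Il1rl1 cells and 112 and 184 in matched cells. Their folds lay between 1.63 and 2.10 lower in both libraries.

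Rtp4 had 35 and 59 UMIs in Il1rl1 cells and 75 and 92 in matched cells. Ifit3, which limits foreign RNA, had 19 and 30 UMIs in Il1rl1 cells and 37 and 51 in matched cells. Against all cells with 0 UMIs, Isg15 and Bst2 were called lower and Isg20, Rtp4 and Ifit3 were not. Against the second matched set Isg15 and Ifit3 were called and the other three were not, with Rtp4 at 1.08-fold in muscle library 2. Mx1 and Ifitm3, named after their values were seen, had too few UMIs to be measured, with 3 and 9 UMIs of Mx1 in Il1rl1 cells against 13 and 38 in matched cells, and 9 and 8 UMIs of Ifitm3 in Il1rl1 cells against 33 and 30 in matched cells.

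Ifi47, an immunity-related GTPase gene outside that list, was called lower as well. It had 75 and 99 UMIs in Il1rl1 cells and 158 and 190 in matched cells, 2.11-fold (1.59 to 2.81) and 1.92-fold (1.499 to 2.47) lower. Ifi47 shares its strand with the overlapping gene Olfr56, so reads of the 2 cannot be told apart. Ifnar2, a subunit of the type I interferon receptor, had 14 and 26 UMIs in Il1rl1 cells and 25 and 53 in matched cells, and it was not called with either other set of cells.

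The interferon difference was larger in cells with 2 or more Il1rl1 UMIs than in those with 1, clearly so in muscle library 1 only. In muscle library 1 the summed level of the 16 genes was 6697 CPM in all cells with 0 Il1rl1 UMIs, 6524 CPM in cells with 1 and 3551 CPM in cells with 2 or more. In muscle library 2 it was 6794, 5573 and 5208 CPM. With members of exactly 1 UMI and their own matched cells, the median log2 fold of the 16 was -0.07, and with members of at least 2 it was -0.91. The first lies near the median of all measured genes. In the other choices of cells and scaling tried, that median lay between -1.15 and -0.50.

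The upper tail was also compared cell by cell. Of the Il1rl1 cells, 18.7% in muscle library 1 and 18.8% in muscle library 2 lay above the upper quartile that all cells of the library had for the summed level of the 16 genes, against 24.0% and 33.8% of the matched cells. The 95% intervals were 12.8% to 25.8% and 13.0% to 25.9% for Il1rl1 cells, and 17.4% to 31.6% and 26.4% to 41.8% for matched cells. They overlapped in muscle library 1 and did not in muscle library 2. Such intervals cover counting error among cells of 1 sample, so whether they overlap is a description and not a test. Of all cells with 0 UMIs, 26.9% in both libraries lay above it, with intervals of 23.2% to 30.9% and 23.2% to 30.8%, which overlap those of the Il1rl1 cells in both libraries.

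**Figure D3:**
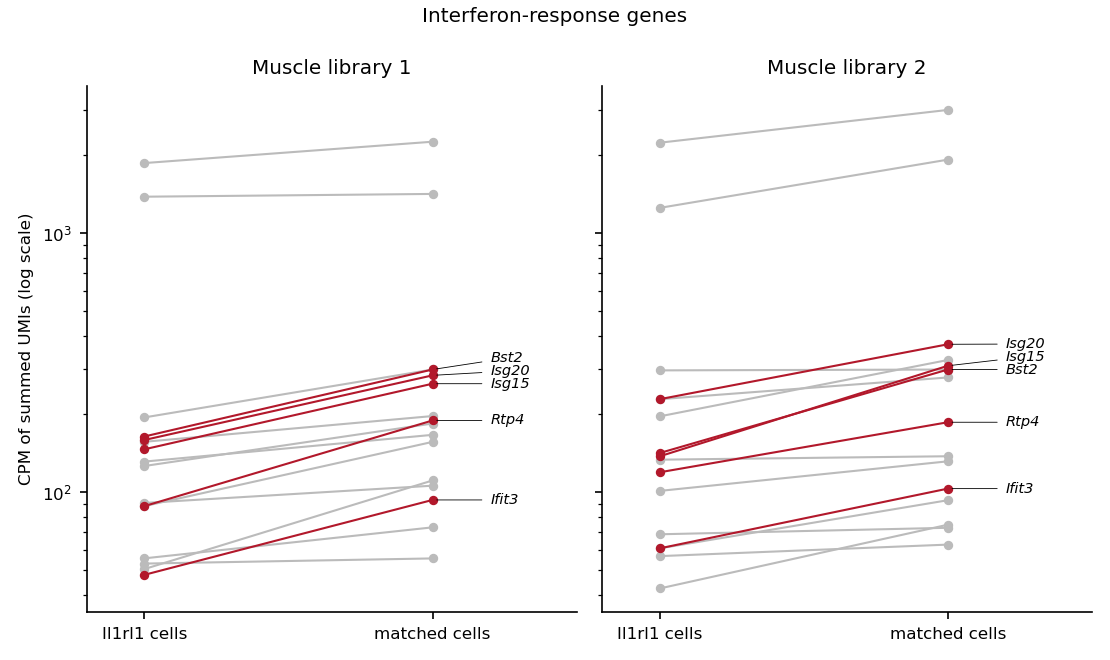
Level of each of 16 interferon-response genes in CPM (log scale) in Il1rl1 cells and matched cells of each muscle library; each line is a gene, red where it was called lower. Every line is lower at the Il1rl1 cells, and Isg15, Bst2, Isg20, Rtp4 and Ifit3 are lower by 1.5-fold or more in both libraries.

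The receptor genes Il12rb1 and Cxcr3 were also lower. Il12rb1, the receptor subunit shared by IL-12 and IL-23, had 14 and 24 UMIs in Il1rl1 cells and 35 and 55 in matched cells, 2.50-fold (1.31 to 5.03) and 2.29-fold (1.396 to 3.87) lower. Cxcr3, a chemokine receptor whose ligands are induced by interferon, had 27 and 47 UMIs in Il1rl1 cells and 54 and 73 in matched cells, 1.999-fold and 1.55-fold lower. It was detected in 8.00% and 13.6% of Il1rl1 cells and in 21.3% and 25.3% of matched cells. Both genes were called lower with each set of cells.

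Those were 2 of the 6 measured genes of the list linked to type 1 helper cells, where 1.64% of all measured genes were called lower. Of the 6, 3 stood below their matched level in both libraries, where 798 of all 3051 genes did. The median log2 fold of the 6 was -0.17. That median was -0.15 without muscle library 1, -0.34 without muscle library 2, -0.27 against all cells with 0 UMIs and -0.37 against the second matched set. Il18r1, the IL-18 receptor chain encoded next to Il1rl1, had 16 and 16 UMIs in Il1rl1 cells and 26 and 29 in matched cells, too few to be measured.

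Of 9 measured Treg identity genes, none was called higher, Izumo1r and Socs2 were called lower, and the median log2 fold was 0.09. Over all measured genes 1.34% were called higher and 1.64% lower. Izumo1r, a folate receptor family gene known from Tregs, had 91 and 207 UMIs in Il1rl1 cells and 187 and 364 in matched cells, 2.05-fold (1.59 to 2.67) and 1.76-fold (1.48 to 2.10) lower, and it was called with each set of cells. Socs2, an inhibitor of cytokine signalling, had 71 and 43 UMIs in Il1rl1 cells and 114 and 98 in matched cells. Its fold in muscle library 1 became 1.05 over the second matched set, so its call rests on the first.

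More genes of tissue Tregs stood above their matched level than below it. Of 24 measured genes of that list, 13 stood above their matched level in both libraries and 4 below, 2 were called higher and none lower, and the median log2 fold was 0.26. Among all 3051 genes, 878 stood above in both libraries and 1.34% were called higher. Without muscle library 1 the median of the list was 0.14, and without muscle library 2 it was 0.45. The 2 called were Klrg1 and Dgat2, and against all cells with 0 UMIs 1 was called higher and 1 lower.

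Klrg1, an inhibitory receptor of effector lymphocytes that binds cadherins (chr6:122270596-122282882, minus strand), had 356 and 584 UMIs in Il1rl1 cells and 195 and 352 in matched cells. It was 1.83-fold (1.53 to 2.19) and 1.66-fold (1.45 to 1.90) higher. It was detected in 56.0% and 63.0% of Il1rl1 cells and in 33.3% and 40.9% of matched cells. The fold was 1.71 and 1.49 over all cells with 0 UMIs and 1.47 and 1.203 over the second matched set, so Klrg1 was above in each but passed 1.5-fold in both libraries with the first set only.

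Klrg1 was also higher where more Il1rl1 was counted. In muscle library 1 it stood at 527 CPM in cells with 0 Il1rl1 UMIs, 730 CPM with 1 and 1025 CPM with 2 or more. In muscle library 2 it stood at 795, 824 and 1457 CPM. The number of Il1rl1 UMIs rises with a cell's total, so depth differed along this order.

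Dgat2, which catalyses the last step of triglyceride synthesis, had 45 and 68 UMIs in Il1rl1 cells and 11 and 4 in matched cells, 4.09-fold (2.08 to 8.78) and 17.0-fold (6.34 to 64.1) higher. The 4 UMIs of the matched cells of muscle library 2 came from 1 cell. Over all cells with 0 UMIs Dgat2 was 2.44-fold and 2.15-fold higher, and over the second matched set 2.46-fold and 1.08-fold. It was above 1 in each, with a size that varied with the cells it was set against. It was detected in 12.0% and 14.3% of Il1rl1 cells.

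Gata3, a transcription factor of type 2 helper cells and of many tissue Tregs (chr2:9857078-9890034, minus strand), had 320 and 244 UMIs in Il1rl1 cells and 177 and 163 in matched cells. Its folds were 1.81 (1.501 to 2.19) and 1.496 (1.22 to 1.84), and the second fell short of the threshold, so it was not called. It was called with the second matched set, at 2.19-fold and 1.56-fold, and not with all cells with 0 UMIs. It was detected in 56.7% and 48.7% of Il1rl1 cells and in 43.3% and 33.1% of matched cells, and together with Klrg1 in 35.3% and 31.2% of Il1rl1 cells and in 18% and 16.2% of matched cells. Gata3 overlaps a further gene on its strand, and their reads cannot be separated.

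Areg, which encodes the growth factor amphiregulin, had 242 and 173 UMIs in Il1rl1 cells and 118 and 124 in matched cells. Its folds were 2.05 (1.64 to 2.58) and 1.39 (1.10 to 1.77), and it was not called. Fgl2, a secreted suppressor of T cells, had 296 and 280 UMIs in Il1rl1 cells and 209 and 155 in matched cells, 1.42-fold and 1.81-fold. Both were above the matched level in both libraries without reaching the rule in both. Over the second matched set Areg was 2.17-fold in muscle library 1 and 1.02-fold in muscle library 2.

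Several genes known from tissue Tregs barely differed. Gzmb, the granzyme B gene, stood at 2614 and 2366 CPM in Il1rl1 cells and at 2367 and 2147 CPM in matched cells, 1.10-fold in both libraries. Il2ra was at 1039 and 798 CPM in Il1rl1 cells and at 988 and 712 CPM in matched cells. Itgae, the integrin alpha chain CD103, was at 306 and 397 CPM in Il1rl1 cells and at 283 and 357 CPM in matched cells. The 95% intervals of the folds of Il2ra and Itgae held 1 in both libraries.

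Il10 had 38 and 44 UMIs in Il1rl1 cells and 41 and 83 in matched cells, and of the 83, 23 came from 1 cell. The chemokine receptor gene Ccr2 had 531 and 582 UMIs in Il1rl1 cells and 372 and 531 in matched cells. Maf stood at 488 and 401 CPM in Il1rl1 cells and at 604 and 497 CPM in matched cells, 0.81-fold in both libraries. None of the 3 was called.

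Bhlhe40, a transcriptional repressor of activated T cells, was among the 6 genes called higher with each set of cells. It had 152 and 199 UMIs in Il1rl1 cells and 68 and 70 in matched cells, 2.24-fold (1.67 to 3.02) and 2.84-fold (2.15 to 3.79) higher. Over all cells with 0 UMIs it was 2.09-fold and 2.18-fold higher, and over the second matched set 1.91-fold and 1.82-fold. It was detected in 30.7% and 27.9% of Il1rl1 cells and in 18% and 15.6% of matched cells. Bhlhe40 overlaps 0610040F04Rik on the other strand, and whether strand was used in counting is not given in the sources used here.

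Of the others in that set of 6, Kat7, a histone acetyltransferase gene, had 47 and 27 UMIs in Il1rl1 cells and 13 and 14 in matched cells. Ramp1, which encodes a partner chain of the receptor for the neuropeptide CGRP, had 75 and 70 UMIs in Il1rl1 cells and 49 and 31 in matched cells. Egln3, an oxygen-dependent prolyl hydroxylase gene, had 41 and 49 UMIs in Il1rl1 cells and 12 and 11 in matched cells. It was called with the first set and with all cells with 0 UMIs, at 2.07-fold and 2.39-fold, and not with the second set.

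Other genes were called as well. Ptdss1, a phosphatidylserine synthase gene, had 37 and 59 UMIs in Il1rl1 cells and 12 and 20 in matched cells, 3.09-fold and 2.95-fold higher, and over the second matched set 1.08-fold and 1.67-fold. Scd2, which encodes a desaturase that makes unsaturated fatty acids, had 16 and 13 UMIs in Il1rl1 cells and 39 and 39 in matched cells. Ptdss1 and Scd2 were called with all cells with 0 UMIs too, and not with the second matched set. Canx, the gene of the endoplasmic reticulum chaperone calnexin, had 40 and 26 UMIs in Il1rl1 cells and 73 and 79 in matched cells, and it was lower with each set of cells. Of the 5 measured genes of the lipid list, Dgat2 was called higher, Scd2 was called lower and 3 were not called.

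**Figure D4:**
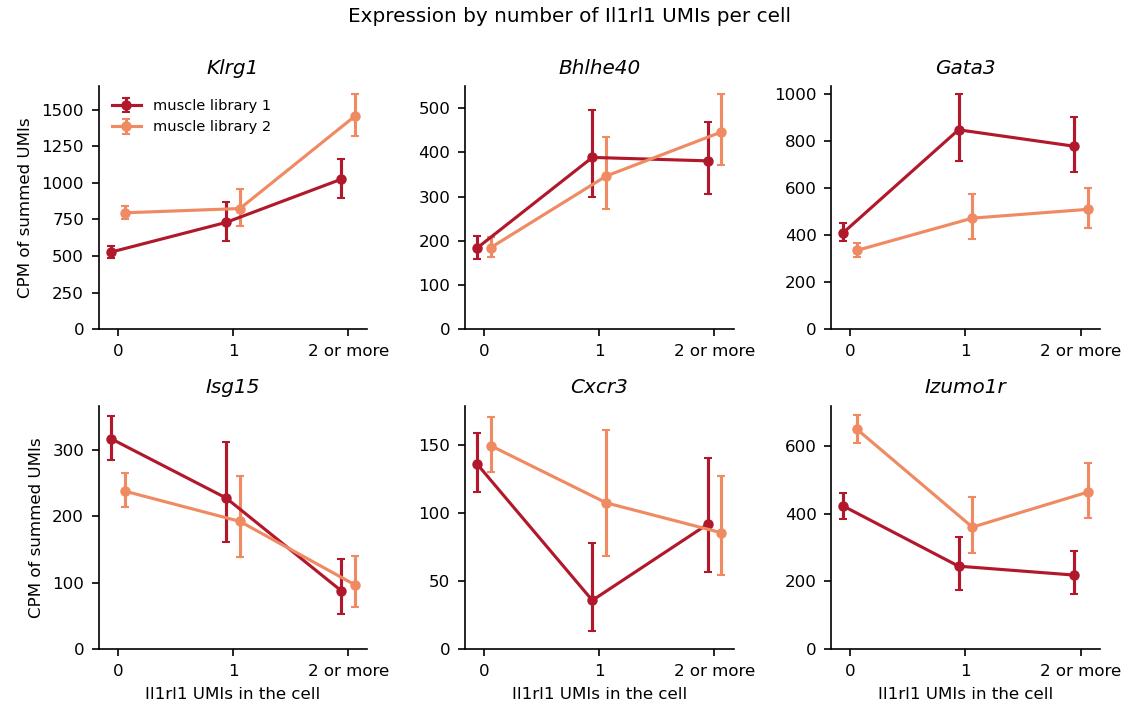
Level in CPM of summed UMIs (95% exact Poisson intervals) of 6 genes in muscle cells with 0, 1 and 2 or more Il1rl1 UMIs, with a line for each muscle library. Klrg1 climbs from 527 and 795 CPM at 0 to 1025 and 1457 CPM at 2 or more, and Isg15 declines over the same steps in both libraries.

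Of the 14 listed genes of the IL-33 pathway only 7 had enough UMIs to be measured. None was called, where few calls are made among 7 genes at the shares of 1.34% and 1.64% over all genes. Their median log2 fold was -0.12, and it was 0.11 against the second matched set. Il1rap, the chain that pairs with ST2, had 3 and 4 UMIs in Il1rl1 cells and 3 and 3 in matched cells, too few to compare. The adaptor gene Myd88 had 16 and 37 UMIs in Il1rl1 cells and 33 and 24 in matched cells, and went opposite ways in the 2 libraries. Irak1, which encodes the kinase downstream, stood at 397 and 691 CPM in Il1rl1 cells and at 477 and 620 CPM in matched cells.

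Genes linked to NF-kB, the factor family at the end of that pathway, stood above their matched level more often than below it. Of 13 measured, 8 were above in both libraries, where 878 of all 3051 genes were, and 1 was below in both. The median log2 fold was 0.28, and it was 0.21 against all cells with 0 UMIs, 0.10 against the second matched set, where 6 were above, and 0.42 without muscle library 1. The 1 called higher was Nfkbie, an inhibitor of NF-kB, with 38 and 48 UMIs in Il1rl1 cells and 20 and 18 in matched cells. It was not called with either other set, where its folds lay between 1.10 and 1.49. Nfkbia, the most counted of them and named for that, stood at 3971 and 3825 CPM in Il1rl1 cells and at 3080 and 2868 CPM in matched cells, 1.29-fold (1.196 to 1.39) and 1.33-fold (1.24 to 1.43).

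Of 13 measured genes that mark effector and memory T cells, 10 stood above their matched level in both libraries, where 878 of all 3051 genes did. None was called, and the median log2 fold was 0.23. Against all cells with 0 UMIs 9 stood above with a median of 0.18, and against the second matched set 8 did with a median of 0.17. S100a4, a calcium-binding protein gene, stood at 3665 and 3341 CPM in Il1rl1 cells and at 2931 and 2998 CPM in matched cells. Id2 was at 875 and 843 CPM in Il1rl1 cells and at 675 and 557 CPM in matched cells. Of 7 measured genes of resting lymphoid T cells none was called. The median log2 fold of the 7 was -0.03, and it was 0.11 without muscle library 1 and -0.17 without muscle library 2. Il7r, one of those 7, stood at 498 and 466 CPM in Il1rl1 cells and at 346 and 270 CPM in matched cells.

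For some genes the libraries went opposite ways, with the UMIs held by few cells. Penk, which encodes the precursor of enkephalins, had 35 and 155 UMIs in Il1rl1 cells and 175 and 85 in matched cells. It was found in 9 and 13 Il1rl1 cells and in 12 and 7 matched cells, and a single matched cell of muscle library 1 held 60 of the 175. Ccr7, a lymph node homing receptor gene, had 2 and 30 UMIs in Il1rl1 cells and 32 and 13 in matched cells. Cxcl10 had 43 and 109 UMIs in Il1rl1 cells and 136 and 60 in matched cells.

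Muscle Tregs were also clustered on 1500 variable genes, Il1rl1 left out, which gave 8 clusters. These are numbered by size and not named. Cluster 2, led by Penk, Cd83 and Dgat2, held 21.3% and 29.2% of the Il1rl1 cells of muscle libraries 1 and 2, and 10% and 12.3% of the matched cells. Cluster 6, led by Ap1g1, Hadh and Rsu1, held 16.7% and 18.2% of the Il1rl1 cells and 9.33% and 7.79% of the matched cells. Il1rl1 was detected in 30.5% and 38.8% of the cells of cluster 2 and in 36.2% and 44.4% of those of cluster 6.

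Cluster 3, led by Ifit3, Ifit3b and Mx1, held 11.3% and 7.14% of the Il1rl1 cells and 12.7% and 19.5% of the matched cells, and its cells had Il1rl1 in 15.5% and 12.5%. Cluster 1 held 10.7% and 9.74% of the Il1rl1 cells and 16.7% and 17.5% of the matched cells. No cluster held more than 29.2% of the Il1rl1 cells of a library, and each cluster held some in both. Cluster 8, the deepest with a median of 4322 UMIs, had Il1rl1 in 29.8% and 23.4% of its cells. The classes differ in genes that shape the clusters, so these shares restate the gene differences and are no separate evidence.

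**Figure D5:**
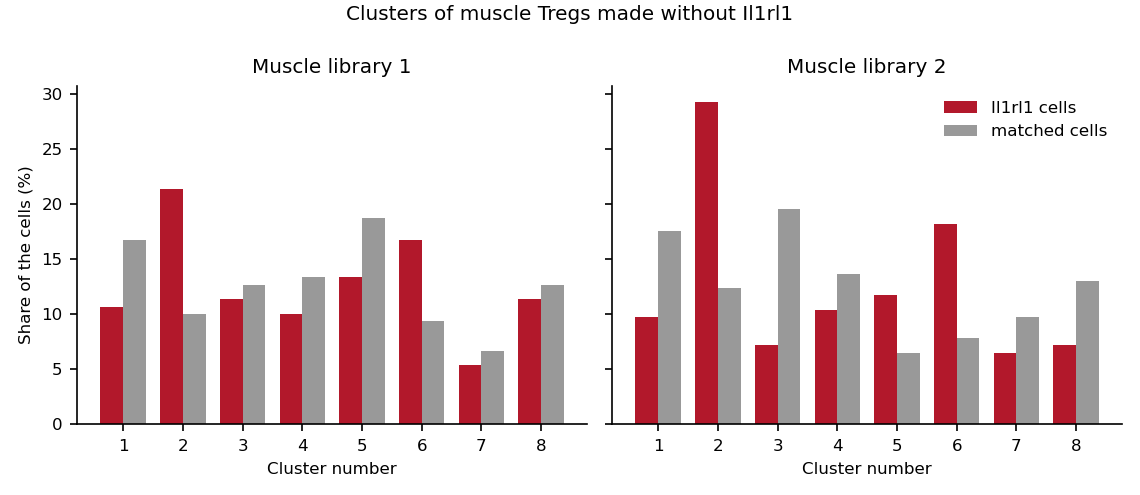
Share in percent of the Il1rl1 cells and of the matched cells of each muscle library that fell in each of 8 clusters made without Il1rl1. Clusters 2 and 6 hold a larger share of the Il1rl1 cells than of the matched cells in both libraries. Clusters 1, 3, 4, 7 and 8 hold a smaller one in both, and cluster 5 differs between the libraries.

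In the spleen 11 cells had Il1rl1 and 248 did not, with medians of 3818 and 3532 UMIs once Il1rl1 was left out. The 11 cells were not matched, and their summed counts rest on 49133 UMIs. Klrg1 stood at 834 CPM in the Il1rl1 cells (95% interval 599 to 1132) and at 186 CPM (160 to 216) in the other spleen cells. Ccr2 stood at 936 CPM in the Il1rl1 cells and at 140 CPM in the others, and Gzmb at 590 and 256 CPM. Izumo1r stood at 407 CPM in the Il1rl1 cells and at 1097 CPM in the others. Klrg1 and Izumo1r thus lay on the same side in spleen and muscle.

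Other genes did not follow muscle. Bhlhe40 stood at 81.4 CPM in the 11 Il1rl1 cells of spleen and at 170 CPM in the others, and Dgat2 had 0 UMIs in the 11 cells and 19 in the others. The 16 interferon-response genes summed to 3318 CPM (2828 to 3868) in the Il1rl1 cells of spleen and to 2513 CPM (2413 to 2617) in the others, the other way from muscle. Of the 91 genes called in muscle, 19 of the 41 higher and 37 of the 50 lower lay on the same side in spleen, and 21 of the 91 had 0 UMIs in the 11 cells, 14 of them among the 37. Of the 3050 measured genes seen in spleen, 55.0% were lower in the 11 cells, as were 59 of the 91, so the counts say little about agreement of the tissues. The difference between the tissues was not tested, with 1 spleen library and 11 such cells.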

How the data were processed

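Expression was measured by inDrops in sorted Foxp3-GFP+ Tregs of injured muscle (2 libraries) and spleen (1 library). The deposited values are whole-number UMI counts per gene and cell; per the submitters' processing notes TopHat2, SAMtools and the mm10 build were used. The gene annotation, the use of strand, the collapsing of UMIs and the filter on cells were not given in the sources used here. Libraries summed to 1533277, 1916496 and 982570 UMIs over muscle library 1, muscle library 2 and spleen, for 674, 694 and 259 cells.

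Members had at least 1 Il1rl1 UMI. Each was paired with a cell of 0 UMIs of its library by optimal assignment on log total UMIs (largest pair difference 0.22 on the log2 scale). UMIs were summed per library and class, divided by totals without Il1rl1, and given per 1000000 (CPM). A gene was measured with at least 100 UMIs over the 4 sums and called at 1.5-fold or more the same way in both libraries, with 3 counts as floor for a class at 0. Intervals are exact at 95% (Poisson for levels, binomial for shares, conditional binomial for folds) and cover counting error only, since UMIs of 1 cell are not independent and all cells of a library share their source. With no animal named, no p-value was computed. No doublet caller was run; sums without cells over 3 times the median UMIs were an alternative.

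Clusters were made without Il1rl1 from 1500 variable genes, 20 principal components and 15 neighbours (Leiden, resolution 0.8; scanpy 1.11.5, igraph 0.11.9). Other steps ran under Python 3.11.15 with scipy 1.17.1, pandas 2.3.3, numpy 2.4.6 and matplotlib 3.10.9; TMM factors of edgeR 4.0.16 and size factors of DESeq2 1.42.0 (R 4.3.3) served as scaling alternatives only. Gene positions are from GENCODE M21 (GRCm38), in which 96.2% of the symbols were found; start windows are from RefSeq (GRCm38.p6).

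Named genes are the 15 called higher and the 15 called lower with the largest smaller fold over both libraries (ribosomal, predicted and receptor segment genes left out), up to 5 measured members of each of 34 gene lists by absolute mean log2 fold, and a few genes fixed by name. Other genes are named to account for a list or a cluster, or, as the text says, after their values were seen. The members and the lists were chosen with earlier results of these data known.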

Additional observations from a re-analysis of the deposited data

Results flagged for a closer look

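Qdpr and Kansl1 lay on one side of their matched cells in both muscle libraries and on the other in spleen, and the difference was not tested. Only genes named by rule were searched for this. Other called genes, named after their values were seen, also lay on the other side. Ppm1a and Snrpb2, lower in muscle, were at 4.75-fold (2.50 to 8.47) and 2.63-fold (1.15 to 5.31) in spleen Il1rl1 cells. Trmt112, higher in muscle, was at 0.204-fold (0.0246 to 0.748) there. Neither Qdpr nor Kansl1 was called with all cells with 0 UMIs or with the second matched set. Over the second set Kansl1 turned to 0.831-fold in muscle library 2. Qdpr, a dihydropteridine reductase gene, had 8 and 24 UMIs in the Il1rl1 cells of muscle libraries 1 and 2 against 25 and 43 in their matched cells, and was called lower. In spleen it had 9 UMIs in the 11 Il1rl1 cells against 29 in the 248 others, a ratio of 5.90. Kansl1, a chromatin complex subunit gene, had 43 and 37 UMIs in the Il1rl1 cells of muscle against 23 and 21 in the matched cells, and was called higher. In spleen it had 0 UMIs in the Il1rl1 cells against 79 in the others, a ratio of at most 0.721 with the floor of 3 counts over the class.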

How the results depend on the processing

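Where 41 genes were called higher and 50 lower, other settings gave these new totals, whose genes need not be the same: members with exactly 1 UMI 26 and 22, cells thinned to 1000 UMIs 8 and 6, no UMI minimum 584 and 551, a minimum of 50 UMIs 140 and 163, a minimum of 200 UMIs 8 and 18, a threshold below 1.5-fold 198 and 185, and 2-fold 4 and 2. Against all cells with 0 UMIs 119 were lower. The number of genes that reached the UMI minimum changed wherever the cells or the minimum did. Such totals therefore cannot be set against the call shares of the main comparison. In 1 muscle library alone 293 to 300 were higher and 296 to 305 lower. Counts under edgeR TMM, DESeq2 size factors, totals without ribosomal genes, equal weight per cell, no deep cells, no shared barcodes, members of at least 2 UMIs, the second matched set and weighted cells with 0 UMIs were within 1.5 times; the weighted set was chosen after seeing the data. The share of cells with Il1rl1 was 11.1%, 12.2% and 1.93% in muscle library 1, muscle library 2 and spleen for at least 2 UMIs, 8.61%, 6.77% and 0.772% at 500 UMIs, and 13.3%, 11.9% and 1.16% at 1000.

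Among called genes named by rule, thinning to 1000 UMIs turned the mean log2 folds of Mrpl18 (-0.37), Cript (-0.22), Kansl1 (-0.50) and Atg101 (1.27). The second matched set turned that of Immp1l (-0.11), and members of exactly 1 UMI that of Ifit3 (0.12). Called genes not named by rule, Patl1 among them, are outside this list. The cause of these turns was not tested. Thinning also chose both classes anew. Only 86 and 82 cells of muscle libraries 1 and 2 kept an Il1rl1 UMI at 1000 UMIs, and members that lost theirs counted as cells with 0. Of 134 named genes under 14 alternatives, 1555 values moved by no more than the 95% counting interval of the gene's pooled fold reaches to one side. A further 313 moved further, and 6 turned. Only called genes could be counted as turned. A change of sign in a named gene that was not called is held in the other counts. No paired analysis was possible because the muscle and spleen libraries share 1 number only and no result comes from a test. Genes under 100 UMIs, Il1rap among them, could not be compared at this depth.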

Other observations

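Some gene groups gave few or no calls, as most groups of their size would at the call shares over all genes, and their medians moved with the cells or the library. Of 15 measured T cell receptor complex genes none was called, and the median log2 fold was -0.04, against -0.12 with the second matched set. Of 10 measured genes of the tumour necrosis factor receptor family none was called, with a median of 0.12, and 0.28 without muscle library 1. Of 17 measured immediate early genes none was called, with a median of 0.10. It was -0.12 against all cells with 0 UMIs and -0.10 with the second set, where 2 were called lower, so the direction turned with the cells.

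Of 14 measured suppressor molecules none was called, with a median of -0.02. It was 0.19 against all cells with 0 UMIs, with 1 called lower, and 0.17 with the second set, with 2 called higher. Of 9 measured heat shock genes 6 stood below their matched level in both libraries and none was called. That count was 5 against all cells with 0 UMIs and 3 with the second set, and 798 of all 3051 genes stood below.

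Of 10 measured integrin and adhesion genes 6 stood above their matched level in both libraries, where 878 of all 3051 genes did. That count was 3 against all cells with 0 UMIs and 4 with the second set. Of 9 measured chemokine receptors 5 stood above and Cxcr3 was called lower. Their median was 0.36, and it was 0.11 without muscle library 1 and 0.51 without muscle library 2. In spleen, Itgb1, the integrin beta chain shared by many adhesion receptors, stood at 1486 CPM in the 11 Il1rl1 cells and at 366 CPM in the others.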
